A study of Elaeis guineensis with 18 samples.

Results

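Endoplasmic reticulum protein processing and heat shock genes of the oil palm leaf were described from 8 genes, which carry the NCBI gene numbers 105042707, 105042708, 105056959, 105036952, 105047872, 105048400, 105041259 and 105051365 among the 30606 genes of the deposited tables. Below, genes are written with the prefix LOC before the number. The study placed the 8 genes in the KEGG pathway of protein processing in the endoplasmic reticulum. In its account, its core genes in this pathway, those called under all 5 stresses, encode mainly small heat shock proteins (sHSPs) and other heat shock proteins (HSPs). The 8 were chosen by their change against control in these same libraries, since each passed the study's thresholds under all 5 stresses. Every value of a stress set against control below is therefore a description and carries no test. The members were tested only between stresses, contrasts that did not choose them, and calls against control are given for other genes and as background.

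The plants were wild-type Deli Dura oil palm (Elaeis guineensis) seedlings, 6 months old, acclimatized for 1 month and treated for 2 weeks, and each group had 3 libraries. Heat seedlings were kept at 40 °C with 200 mL of water a day. Drought seedlings at 28 °C received no water, salinity seedlings at 28 °C were given 200 mL of 0.2 M NaCl a day, cold seedlings were kept at 10 °C with 200 mL of water, and for waterlogging at 28 °C the water stood 1 inch above the soil. Control seedlings were kept at 28 °C with 200 mL of water. Each library came from the third leaf of 3 seedlings pooled as 1 biological replicate, so the values say nothing of single plants, of other leaves or of earlier times in the treatment.

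HSPs are molecular chaperones. Small HSPs bind proteins that have begun to unfold and hold them without using ATP, and ATP-driven chaperones such as the larger HSPs then refold them. In the endoplasmic reticulum, chaperones fold secreted and membrane proteins, and those that fail are exported and degraded, but the KEGG map of this pathway also contains chaperones of the cytosol. In plants many HSP genes are nearly silent in unstressed leaves and are switched on by heat shock factors, whereas other chaperones are made at all times.

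Library totals ran from 14839345 to 22126971 counts, and 23830 genes, all 8 members among them, passed the filter on low counts. Levels are given as CPM, the count set against the library total after TMM scaling, a unit for comparing libraries within a gene. The TMM factors were 1.352 to 1.359 in the cold libraries and 0.7835 to 0.8802 in the waterlogging libraries, so contrasts with cold depend most on the scaling. The 15 light-harvesting genes that were used to check for green tissue summed to 37565 to 49220 CPM in heat, 34613 to 56002 in drought and 58549 to 93479 in salinity libraries. They summed to 9448 to 11746 CPM in cold, 79047 to 106740 in waterlogging and 22768 to 45027 in control libraries, so leaf transcripts were abundant in every group. The study had listed these genes among those it called under cold on these libraries, so their lowest sum, in cold, is not an independent result. In bulk RNA, fewer cells of a type and less RNA per cell cannot be told apart. Other cell types of the leaf had no marker list here.

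The 8 genes together took 2.05 to 2.28% of all counts in heat libraries, 0.184 to 0.206% in drought, 0.111 to 0.118% in salinity, 0.128 to 0.165% in cold, 0.0770 to 0.0863% in waterlogging and 0.0452 to 0.0487% in control libraries. The group means of all 8 fell in the order heat, drought, salinity, waterlogging and control, with cold at a different place from gene to gene. All 8 were higher than control under each stress, as the choice of the genes fixed, and no call of theirs against control is used. As background, 11.5% of all genes were called higher than control for heat, 10.7% for drought, 10.5% for salinity, 13.1% for cold and 12% for waterlogging. Of 486 genes outside the 8 that were called higher than control under all 5 stresses, 34 (7%) had the order heat over drought over salinity over waterlogging, and of all genes tested 7.38% had it. Heat was the highest group for 8 of 8 members, for 72 (14.8%) of those 486 genes and for 17% of all genes tested. It was also the highest for 11 of 11, 21 of 25, 8 of 13 and 6 of 10 genes of the lists Hsp90 protein binding, unfolded protein binding, protein refolding and response to heat described below, so this is not particular to the 8.

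**Figure D1:**
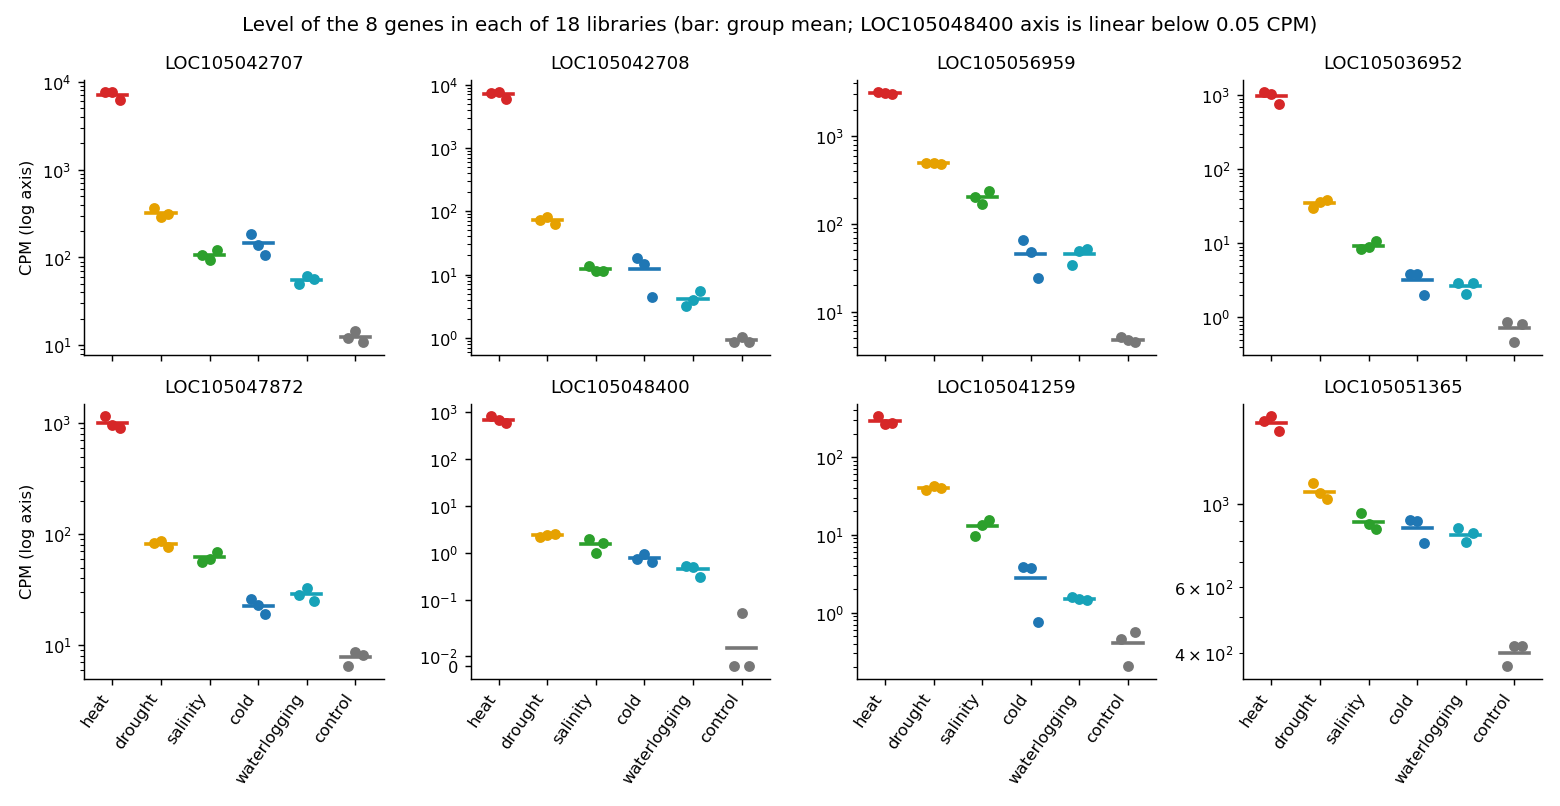
CPM of each of the 8 genes (log axes, which differ between panels) in the 3 libraries of each of 6 groups, with a bar at the group mean. Heat libraries are the highest in every panel, at 6271 to 7601 CPM for LOC105042707 and 1569.7 to 1719 CPM for LOC105051365, and control libraries the lowest.

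LOC105042707 and LOC105042708, the pair that the study's gene ontology table lists under response to heat, were the most abundant of the 8 under heat. LOC105042707 had 7601, 7576 and 6271 CPM in heat libraries, 370.4, 287 and 312 in drought and 106, 93.1 and 122 in salinity. It had 186, 139.8 and 107 CPM in cold libraries, 49.7, 61.1 and 57.3 in waterlogging and 12.2, 14.7 and 10.9 in control. Only the salinity and cold libraries overlapped. LOC105042708 had 7420.5, 7588 and 6016 CPM in heat libraries, 71.7, 81.4 and 64.0 in drought and 13.6, 11.2 and 11.4 in salinity. Its cold libraries had 18.1, 14.4 and 4.36 CPM, the waterlogging libraries 3.13, 3.97 and 5.44 and the control libraries 0.855, 1.03 and 0.861. Salinity lay inside the range of cold, and cold replicate 3 inside that of waterlogging.

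Under heat this pair stood at nearly the same level, while in the other groups LOC105042707 was the higher, with mean CPM of 323 and 72.4 in drought and 12.6 and 0.915 in control for LOC105042707 and LOC105042708 at almost equal gene lengths of 1023 and 1033 bases. Heat exceeded drought by a log2 fold change (log2FC) of 4.47 ± 0.22 (SE) for LOC105042707 and of 6.60 ± 0.42 for LOC105042708, with adjusted p of 4.1e-09 and 5.1e-08 in edgeR's quasi-likelihood test. Drought also exceeded salinity, by 1.6 ± 0.20 for LOC105042707 (adjusted p = 3.1e-04 in edgeR) and by 2.58 ± 0.36 for LOC105042708 (adjusted p = 6.1e-04). They were the 2 genes called higher in cold than in waterlogging, by 1.36 ± 0.20 (adjusted p = 3.7e-05 in edgeR) for LOC105042707 and 1.56 ± 0.37 (adjusted p = 0.0022) for LOC105042708.

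LOC105056959 had the third highest level under heat. It was at 3173, 3116 and 3017 CPM in heat libraries, 497, 502 and 488 in drought and 201, 170.5 and 235 in salinity. Cold libraries had 65.4, 47.4 and 23.9 CPM, waterlogging libraries 34.4, 49.7 and 51.7 and control libraries 5.18, 4.78 and 4.5. Heat, drought and salinity each stood clear of the next group, and the cold libraries spanned the waterlogging ones. Heat over drought was 2.65 ± 0.27 on the log2 scale (adjusted p = 3.7e-06 in edgeR), drought over salinity 1.29 ± 0.26 (adjusted p = 0.0071) and salinity over cold 2.15 ± 0.27 (adjusted p = 8.7e-06). Cold minus waterlogging was 0.01 ± 0.26.

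LOC105036952 had 1094, 1025 and 762 CPM in heat libraries, 29.7, 36.5 and 38.3 in drought and 8.28, 8.78 and 10.9 in salinity. It had 3.86, 3.81 and 2.03 CPM in cold libraries, 2.93, 2.05 and 2.91 in waterlogging and 0.855, 0.463 and 0.810 in control. The steps heat over drought (4.78 ± 0.25, adjusted p = 6.0e-09 in edgeR), drought over salinity (1.90 ± 0.23, adjusted p = 2.5e-04) and salinity over cold (1.53 ± 0.24, adjusted p = 7.1e-05) passed, and cold minus waterlogging (0.30 ± 0.26, adjusted p = 0.34) did not.

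LOC105047872 was at 1161, 968 and 911 CPM in heat libraries, 83.2, 86.1 and 76.1 in drought and 56.4, 60.2 and 69.5 in salinity. Cold libraries had 26.1, 23.0 and 19.0 CPM, waterlogging libraries 28.2, 32.6 and 25.3 and control libraries 6.49, 8.74 and 8.20. It was the only member with a lower mean in cold than in waterlogging, at a log2FC of −0.34 ± 0.15 (adjusted p = 0.069 in edgeR), and these groups overlapped. This direction turned to 0.37 ± 0.15 with library totals (adjusted p = 0.037). Heat exceeded drought by 3.63 ± 0.16 (adjusted p = 1.9e-09), and drought minus salinity was 0.40 ± 0.15 (adjusted p = 0.11).

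LOC105048400, which the study's overview sets among the HSPs, had the widest range of the 8. Its heat libraries had 822, 664 and 589.9 CPM, drought libraries 2.22, 2.44 and 2.58 and salinity libraries 1.95, 1.00 and 1.59. It had 0.729, 0.952 and 0.639 CPM in cold libraries, 0.533, 0.497 and 0.306 in waterlogging and 0, 0.0514 and 0 in control. In reads this was 43917 in the 3 heat libraries, 125 in drought, 81 in salinity, 61 in cold, 20 in waterlogging and 1 in control.

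With 1 control read, the ratios of LOC105048400 to control, scaled by depth, are held only within wide 95% counting intervals, 40758 (7315 to 1.61e+06) for heat and 26.7 (4.28 to 1108) for waterlogging. These intervals cover counting error only. Heat exceeded drought by 8.16 ± 0.25 on the log2 scale (adjusted p = 4.8e-11 in edgeR), a ratio of mean CPM of 287. The steps among the other stresses were smaller, with drought minus salinity at 0.69 ± 0.24 (adjusted p = 0.093), salinity minus cold at 0.95 ± 0.26 (adjusted p = 0.0071, under 2-fold) and cold minus waterlogging at 0.76 ± 0.34 (adjusted p = 0.070).

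LOC105041259, also an HSP in the study's overview, had 335, 261 and 277 CPM in heat libraries, 38.1, 42.8 and 39.7 in drought and 9.60, 13.5 and 15.6 in salinity. Cold libraries had 3.83, 3.73 and 0.751 CPM, waterlogging libraries 1.6, 1.49 and 1.45 and control libraries 0.453, 0.206 and 0.557. Cold replicate 3 fell below all waterlogging libraries and the other cold replicates above them. Heat exceeded drought by 2.86 ± 0.34 (adjusted p = 1.4e-05 in edgeR), drought exceeded salinity by 1.63 ± 0.33 (adjusted p = 0.0079) and salinity exceeded cold by 2.23 ± 0.36 (adjusted p = 1.1e-04).

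LOC105051365 differed from the other 7 in having a high level in control. The study's gene ontology table lists it under unfolded protein binding and ATP-dependent protein folding chaperone. It had 1668, 1719 and 1569.7 CPM in heat libraries, 1137, 1072 and 1035 in drought and 951, 886 and 858 in salinity. Cold libraries had 907, 904 and 787 CPM, waterlogging libraries 863, 791 and 836 and control libraries 370.0, 419 and 417. All stress libraries lay above all control libraries, and salinity, cold and waterlogging overlapped. Heat minus drought was 0.61 ± 0.11 (adjusted p = 4.7e-04 in edgeR), past the p threshold but under 2-fold, and drought minus salinity was 0.27 ± 0.11 (adjusted p = 0.14).

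LOC105051365 also stood nearest to the edge of the rule that chose the genes, which needed a change of at least 2-fold (a log2FC of 1). Its log2FC against control was 2.04 in heat, 1.43 in drought, 1.16 in salinity, 1.11 in cold and 1.05 in waterlogging, and the next smallest value of any member was 1.54, for LOC105047872 in cold. Among 52 further genes in 4 gene ontology lists of chaperones and heat response described below, 10 were called higher than control under 4 of the 5 stresses, and 9 of these were not called in cold. The study had called these list genes under heat or cold on these libraries, so the counts are not independent evidence. Of all genes tested, 13.1% were called higher than control in cold and 10.5% to 12% in each other stress, and calls under 4 of the 5 were not counted over all genes. The closest to the edge was LOC105040948, at 0.90 in cold. LOC105038674, an unfolded protein binding gene that the study also places in this pathway, was called under all 5, with its smallest value, 1.29, in salinity.

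Levels between genes can be compared per length, in fragments per length and depth (FPKM, as deposited). In heat libraries LOC105042707 averaged 6963 ± 432 FPKM (SD, n = 3) and LOC105042708 6756 ± 531 FPKM, which put them 4th and 6th of the 23830 genes tested. LOC105056959 averaged 1352 ± 37.7 FPKM in heat, LOC105047872 1001 ± 107, LOC105036952 887 ± 127, LOC105048400 864 ± 125, LOC105051365 644 ± 6.42 and LOC105041259 334 ± 42.9. In control libraries LOC105051365 averaged 174 ± 7.51 FPKM, LOC105042707 13.6 ± 2.0 and LOC105047872 8.53 ± 1.08, while the others were at 2.33 FPKM or less. The make-up of the group was thus different in the 2 conditions. LOC105042707 and LOC105042708 made up 37.0% and 35.9% of the 8 genes' summed FPKM in heat, against 6.79% and 0.488% in control, and LOC105051365 made up 3.43% in heat and 86.7% in control.

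**Figure D2:**
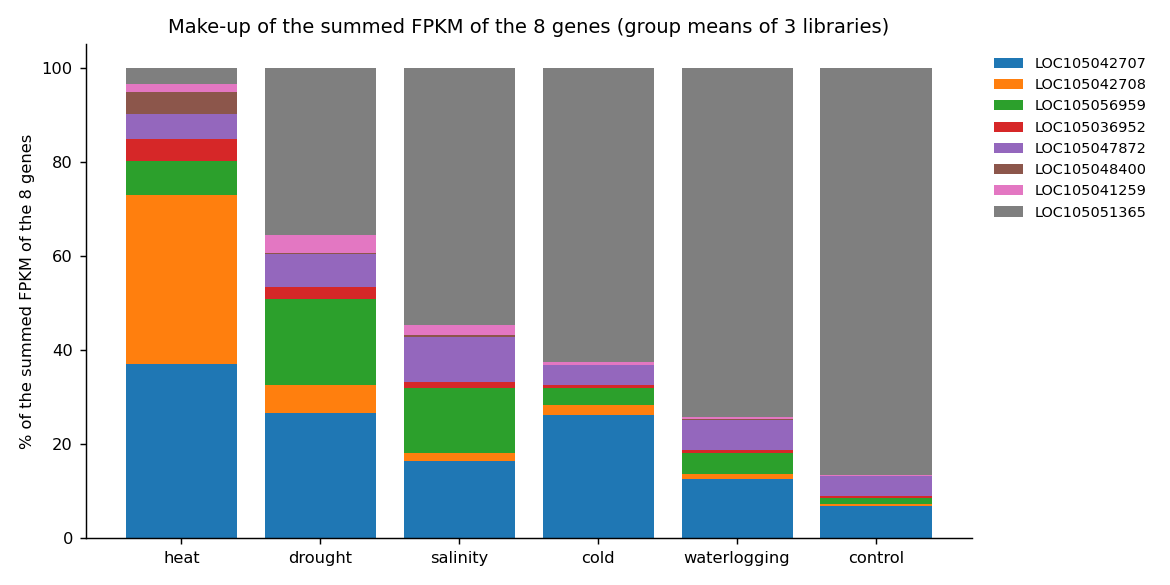
Share of each of the 8 genes in their summed FPKM, from group means of 3 libraries (bars sum to 100%). LOC105051365 makes up 3.43% in heat and 86.7% in control, its bar growing from left to right, and LOC105042708 has its largest share, 35.9%, in heat.

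Counted over the 8, heat was called higher than each of the other stresses for 7 genes, against 8.18% of all genes tested for drought, 6.57% for salinity, 7.9% for waterlogging and 12.4% for cold (adjusted p under 0.05 and at least 2-fold). No member was lower in heat, against 8.29%, 7.55%, 8.12% and 9.79% of all genes in the same order. The gene not called was LOC105051365 in each case, with log2FC of 0.61 over drought, 0.88 over salinity, 0.99 over waterlogging and 0.93 over cold, all past the p threshold. Heat minus waterlogging for LOC105051365 crossed 2-fold without heat replicate 1 (1.00), heat replicate 3 (1.03) or waterlogging replicate 1 (1.02). All heat libraries lay above all drought libraries for 8 of 8 members (27.7% of all genes), and likewise above all salinity (26.6%), waterlogging (24.1%) and cold libraries (30.8%). The median log2FC of the 8 was 4.05 over drought, 5.28 over salinity, 7.29 over waterlogging and 6.40 over cold, beside medians of all genes of 0.01, −0.01, 0.01 and 0.00. The ratio of mean CPM, heat to drought, spanned 1.53 for LOC105051365 to 287 for LOC105048400, and was 6.26 for LOC105056959, 22.1 for LOC105042707 and 96.9 for LOC105042708.

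Drought was the second highest group for every member in CPM. In FPKM, which rest on the library total without TMM, cold came second for LOC105051365, with 459 FPKM in cold and 386 in drought. Drought was called higher than salinity for 5 of 8 (1.14% of all genes), with LOC105047872, LOC105048400 and LOC105051365 not called, and no member was lower (1.64%). Over waterlogging 7 of 8 were called (3.44%) and over cold 7 of 8 (14.2%), in both LOC105051365 being the exception, and none was lower (3.58% and 12.8%). In CPM all drought libraries lay above all salinity (17.4% of all genes), waterlogging (17.6%) and cold libraries (33%) for 8 of 8. The last of these turned with the scaling for LOC105051365, whose drought libraries had 411, 385 and 361 FPKM, all below the 482, 478 and 416 FPKM of cold, and whose drought minus cold was 0.32 ± 0.11 with TMM and −0.25 ± 0.10 with library totals. The median log2FC of the members was 1.44 over salinity, 2.99 over waterlogging and 2.20 over cold. The largest was drought over waterlogging for LOC105041259, at 4.72 ± 0.42 (adjusted p = 6.5e-06 in edgeR), a ratio of mean CPM of 26.5. Drought over cold for LOC105042707 was 1.16 ± 0.20 and dropped under 2-fold, to 0.99, without cold replicate 3. With scaling by library totals in place of TMM it was 0.59.

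Salinity was called higher than waterlogging for 5 of 8 members, LOC105056959, LOC105036952, LOC105047872, LOC105048400 and LOC105041259 (0.365% of all genes), and for none lower (0.256%). LOC105042707 missed 2-fold at 0.93 ± 0.20 (adjusted p = 0.032 in edgeR) and LOC105042708 missed the p threshold at 1.53 ± 0.37 (adjusted p = 0.055), although the libraries did not overlap for 7 of 8 members (7.89% of all genes). These calls depended on single libraries and on the fit. LOC105048400 was lost without salinity replicate 3 (adjusted p = 0.069) or waterlogging replicate 2 (adjusted p = 0.071). LOC105042708 was gained without cold replicate 1 (adjusted p = 0.041), cold replicate 3 (adjusted p = 0.0020) or waterlogging replicate 3 (adjusted p = 0.030). With only the 6 libraries of these 2 groups in the fit, 1 of the 8 was called, though the fold changes of the 4 lost were no smaller, at 2.19 for LOC105056959 (adjusted p = 0.050 in edgeR), 1.86 for LOC105036952 (0.072), 1.14 for LOC105047872 (0.072) and 1.76 for LOC105048400 (0.25).

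Cold was the group whose place differed among the members. Salinity was called higher than cold for 4 of 8, LOC105056959, LOC105036952, LOC105047872 and LOC105041259 (13.3% of all genes), by 1.45 to 2.23 on the log2 scale, and for none lower (10%). It was within error of cold for LOC105042708, at −0.03 ± 0.34, and LOC105051365, at 0.05 ± 0.11 (−0.57 ± 0.10 with library totals), and LOC105042707 was at −0.43 ± 0.20 (adjusted p = 0.074 in edgeR). LOC105048400 passed 2-fold without cold replicate 2 (1.12) or salinity replicate 2 (1.18). With library totals in place of TMM the count was 2 higher and 1 lower, the lower one being LOC105042707 at −1.05 (adjusted p = 1.9e-04), and the median of all genes moved to −0.61.

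Cold minus waterlogging gave 2 of 8 called higher, LOC105042707 and LOC105042708 (11.2% of all genes), and none lower (13.5%). This contrast moved most with the scaling: with library totals 5 of 8 were called higher, while the median of all genes moved to 0.72. LOC105041259 was at 0.87 ± 0.44 (adjusted p = 0.11 in edgeR) and was called without cold replicate 3, at 1.31 (adjusted p = 3.9e-04).

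**Figure D3:**
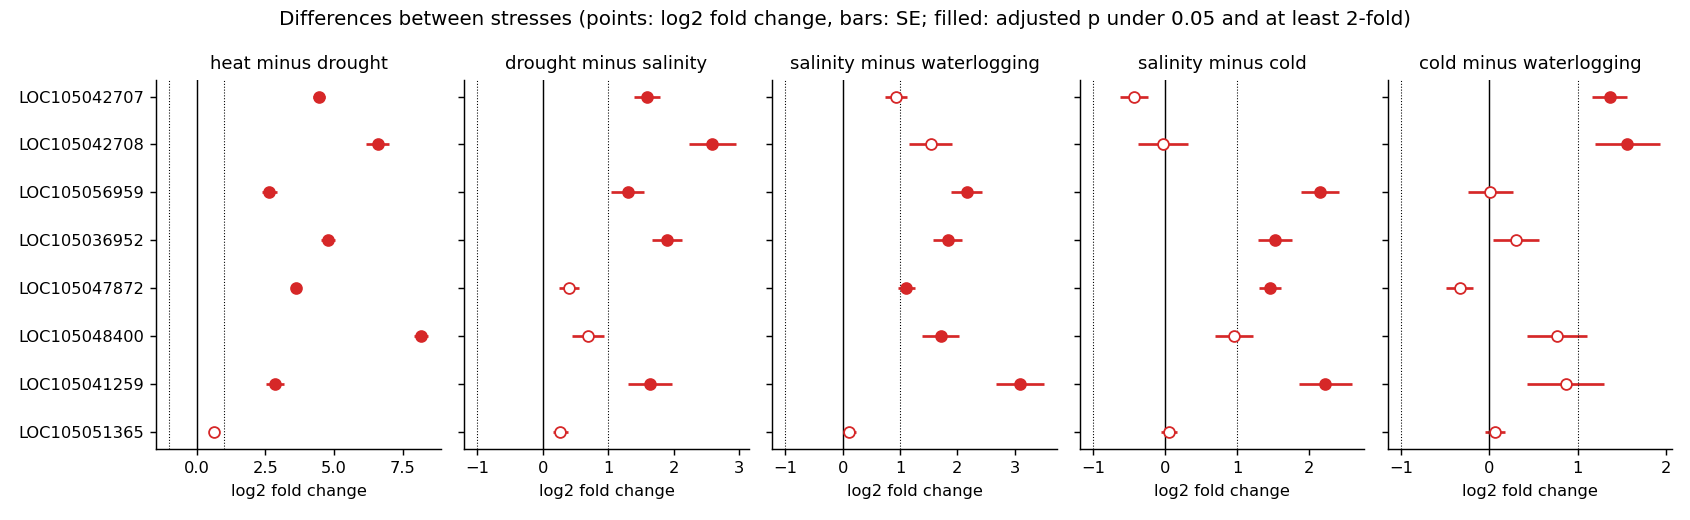
log2 fold change (points) with SE (bars) of each of the 8 genes in 5 contrasts between stresses. Filled points passed adjusted p under 0.05 and at least 2-fold, dotted lines mark 2-fold, and x axes differ between panels. Heat minus drought runs to 8.16 for LOC105048400, LOC105051365 lies nearest 0 in heat minus drought, and salinity minus cold is the panel with 2 points left of 0.

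The replicates of the members were tight in drought and wide in cold. The median SD of log2 CPM of the 8 genes was 0.183 in heat, 0.0996 in drought, 0.201 in salinity, 0.462 in cold, 0.239 in waterlogging and 0.222 in control, beside 0.184, 0.187, 0.203, 0.168, 0.261 and 0.201 for all genes tested in the same order. Cold replicate 3 was the lowest of its group for 8 of 8 members, against 34.8% of all genes. The mean of the other 2 cold libraries was 5.03 times its level for LOC105041259, 3.73 times for LOC105042708, 2.36 times for LOC105056959 and 1.89 times for LOC105036952, and 1.15 to 1.52 times for the other 4. Its TMM factor lay within the 1.352 to 1.359 of the cold group, and what set this library apart for these genes was not tested. Heat replicate 3 was the lowest heat library for 7 of 8 members, against 35.7% of all genes.

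Within groups, the members' deviations from the group mean had Pearson r of −0.281 to 0.899 over 28 pairs of genes and 18 libraries, with a median of 0.413. The highest were LOC105042708 with LOC105056959 (0.899) and LOC105036952 with LOC105041259 (0.833). Without the cold libraries the median was 0.0344 and the range −0.7 to 0.754. These genes share libraries and depth, and no test was made.

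**Figure D4:**
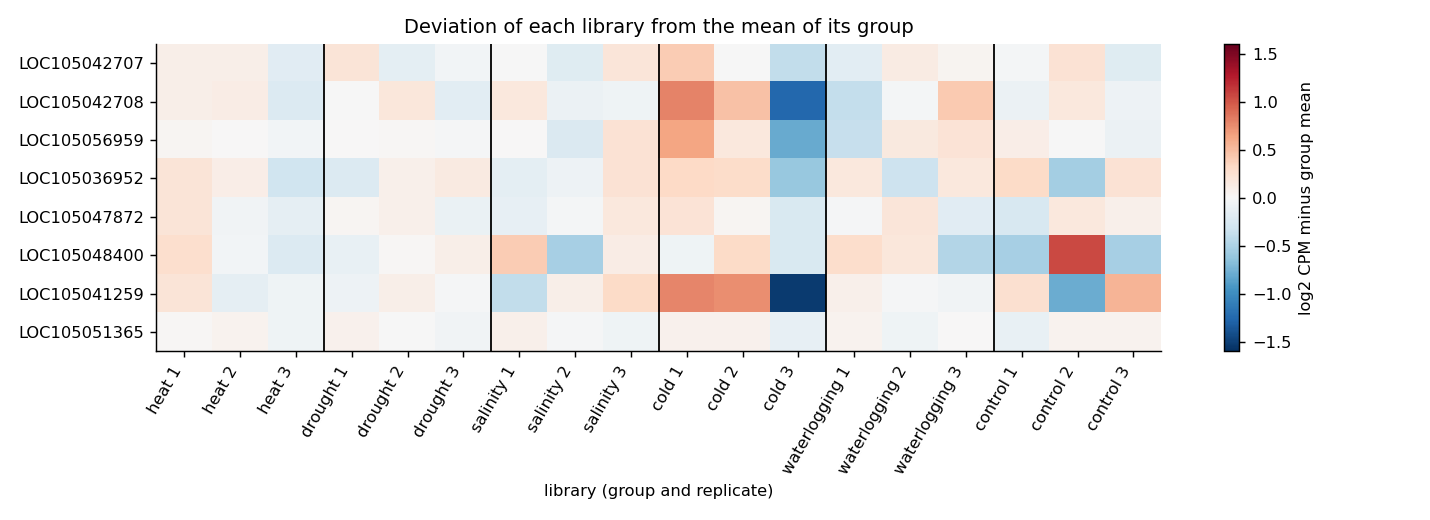
Deviation of log2 CPM from the group mean for each of the 8 genes (rows) in each of 18 libraries (columns), red above and blue below the mean. Cold replicate 3 is blue in every row, down to −1.53 for LOC105041259 and −1.26 for LOC105042708, and control replicate 2 of LOC105048400 is the library with its 1 control read.

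Of 23822 other genes tested, 139 had a Pearson r over 0.9 with the mean standardised log2 CPM of the 8 over the 18 libraries. The members themselves had r of 0.948 (LOC105051365) to 0.989, but each is part of that mean, so these r cannot be set against those of other genes. The 10 most alike were LOC105047941 (0.995), LOC105040848 (0.992), LOC105038195 (0.989), LOC105041256 (0.984), LOC105041260 (0.982), LOC105041255 (0.982), LOC105038569 (0.980), LOC105036027 (0.978), LOC105049701 (0.978) and LOC105041935 (0.977). LOC105047941, LOC105041260 and LOC105041935 are in the same pathway in the study's account, and LOC105040848 is among its chaperones. The study places more core genes in this pathway than the 8. Its core genes all passed the rule that chose the members, so a likeness among them is not independent of that choice. Being chosen for likeness to genes that were highest in heat, all 10 had their highest mean there, which is no separate result. It was 3132 CPM for LOC105040848, 1028 for LOC105047941 and 34.8 for LOC105049701, against 28.4, 12.6 and 1.49 CPM in control. With FPKM in place of CPM, 6 of the 10 were again among the 10 most alike.

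In the gene order of the RefSeq assembly EG11, used for order alone, LOC105042707 and LOC105042708 lie next to each other with no gene between, and LOC105042706, listed with them under response to heat, is next to LOC105042707. Its mean was 3.71 CPM in heat, 0.177 in drought and 0.151 in control. LOC105041259 lies beside LOC105041260, and LOC105041256 and LOC105041255 are 4 and 5 places from it, so 3 of the 10 most alike genes lie within 5 places of 1 member. LOC105041260 averaged 2647 CPM in heat, 278 in drought and 1.91 in control, LOC105041256 1811, 19.95 and 0.102, and LOC105041255 1244, 11 and 0.0169. LOC105041258, on the other side of LOC105041259, had another pattern, with 93.1 CPM in heat, 277 in drought and 27.2 in control.

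LOC105048398, 2 places from LOC105048400, averaged 8513 CPM in heat, 103 in drought and 0.118 in control. Per length it averaged 10150.0 ± 586 FPKM in heat (SD, n = 3), above the 6963 ± 432 FPKM of LOC105042707, the highest of the 8. Between them LOC105048399 averaged 5.46 CPM in heat, 0.664 in drought and 0.948 in control, and on the far side LOC105048401 averaged 5.26, 0.276 and 0.169. Over all members, 18 genes of the tables within 2 places of one were tested, and 8 of them were called higher in heat than in drought (8.18% of all genes) and 2 lower (8.29%). LOC105042706, LOC105041260, LOC105048398, LOC105048399 and LOC105048401 were 5 of those 8. No source used here gives the strand setting of the counting, so reads of overlapping genes cannot be told apart, and levels of near-identical copies in a family are uncertain.

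**Figure D5:**
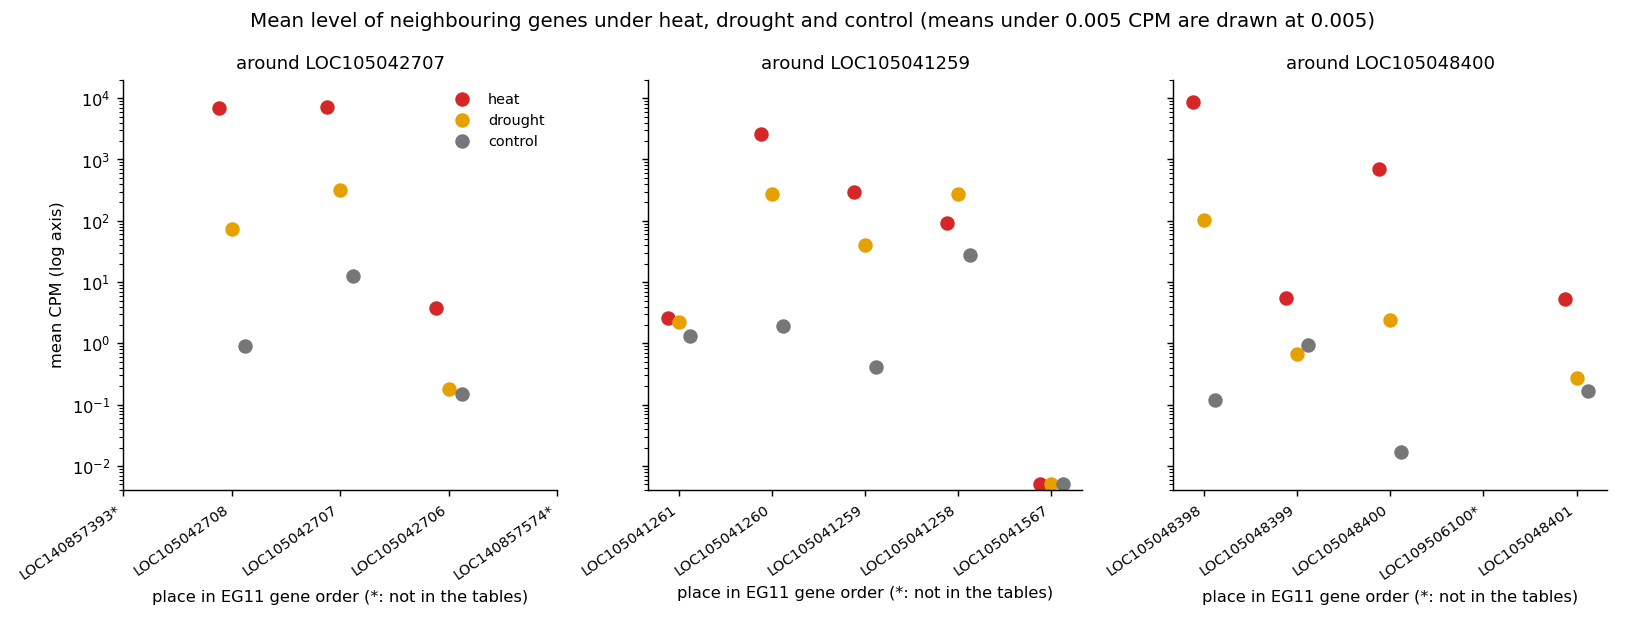
Mean CPM (log axis) in heat, drought and control of the genes up to 2 places on either side of LOC105042707, LOC105041259 and LOC105048400 in EG11 gene order. Both LOC105042707 and LOC105042708 stand near the top of the axis in heat (7149 and 7008 CPM), LOC105048398 reaches 8513 CPM 2 places from LOC105048400, and LOC105041258 is higher in drought (277 CPM) than in heat (93.1 CPM).

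Other chaperone genes were taken from 4 gene ontology lists of the study, whose genes it had called under heat or cold on these libraries. Neither the direction nor the number of their calls in contrasts with heat or with cold is therefore independent evidence. Members were left out. In heat minus drought, 7 of 11 genes of Hsp90 protein binding were higher and 0 lower (median log2FC 1.20), and 10 of 13 of protein refolding were higher and 0 lower (median 1.26). Unfolded protein binding had 12 of 25 higher and 1 lower (median 0.94), and response to heat had 4 of 10 higher and 1 lower (median 0.29). Of all genes 8.18% were higher and 8.29% lower, and the members' median was 4.05. The list genes with the highest mean CPM were LOC105053974, LOC105035532 and LOC105056005. LOC105035532, a protein refolding gene, averaged 972 CPM in heat and 498 in drought (log2FC of 0.96 ± 0.12, under 2-fold).

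LOC105053974, listed under both response to heat and unfolded protein binding, was the one gene of the 4 lists called lower in heat than in drought. LOC105034489 (−0.58, adjusted p = 0.0013 in edgeR), LOC105037792 (−0.61, adjusted p = 0.049) and LOC105056005 (−0.37, adjusted p = 0.022) were also lower past the p threshold, by less than 2-fold. It averaged 881 ± 96.9 CPM in heat and 2085 ± 188 in drought (SD, n = 3 each), a log2FC of −1.24 ± 0.20 (adjusted p = 1.5e-04 in edgeR), and 2433 ± 405 CPM in control. In the cold contrasts, protein refolding had 7 of 13 genes higher and 1 lower in cold minus waterlogging (median 1.24), none higher and 5 lower in drought minus cold (median −0.65), and none higher and 6 lower in salinity minus cold (median −1.05). Of all genes, 11.2% were higher and 13.5% lower in cold minus waterlogging, 14.2% and 12.8% in drought minus cold, and 13.3% and 10% in salinity minus cold. In drought minus cold, 7 of 8 members were higher. With library totals these counts were 11 higher and 0 lower in cold minus waterlogging, 0 and 8 in drought minus cold and 0 and 11 in salinity minus cold. Hsp90 protein binding had 6 of 11 genes higher and none lower in drought minus cold, or 3 and 0 with library totals. Its cold minus waterlogging count of 0 higher and 2 lower turned with the scaling, to 2 higher and 0 lower with library totals.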

How the data were processed

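RNA of 18 leaf libraries was sequenced. The authors filtered the reads for quality, mapped them with TopHat2 to an oil palm genome and counted those of each gene with HTSeq. No source used here gives the assembly version or the strand setting. The deposited counts are whole numbers, not normalized. The deposited FPKM are those counts per gene length and library total. Groups came from the sample titles.

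Counts were analysed in R 4.3.3 with edgeR 4.0.16 (filterByExpr with a minimum count of 10 and a total of 15, TMM, 1 quasi-likelihood fit of all 18 libraries with 12 residual degrees of freedom, common biological coefficient of variation 0.215). Benjamini-Hochberg adjustment of p ran over 23830 genes within each contrast, and a call needed an adjusted p under 0.05 and at least 2-fold, the study's thresholds. Scripts were tested on simulated data. Log2 CPM used a prior count of 0.5. Replicates are biological by their labels, and no 2 libraries of a group were copies (chi-square per degree of freedom 17 to 96.8).

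Alternatives were library totals, RLE factors, DESeq2 1.42.0, no filter, limma 3.58.1 on log2(FPKM + 0.1), a replicate block, a separate fit per contrast and leaving out each library. The members and lists were chosen with earlier results of these data known. The rule for named genes took the members, the 10 genes most like them over the libraries, the 4 most abundant genes of each list and genes within 2 places of a member. LOC105040948, LOC105038674 and LOC105037792 were named after their values were seen. Lists by product description or protein similarity, promoters and proteins were not analysed here. All 8 members matched the EG11 gene table, from which no coordinates were used.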

Additional observations from a re-analysis of the deposited data

How the results depend on the processing

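No call of a member turned to the opposite call under any alternative, and heat over the other 4 stresses, drought over the other 3 and every count of members lower in those 7 contrasts kept within 1.5 times the main count. The counts that moved were in contrasts of the lower stresses. Salinity minus waterlogging had 5 members higher, and 1 in a separate fit of the 6 libraries, where the log2FC of the 4 lost were 1.14 to 2.19 and no smaller than in the fit of all libraries. Over all alternatives this count ran from 1 to 7, as LOC105042707 and LOC105042708 were also called with library totals and with limma on FPKM. Salinity minus cold had 4 higher and 0 lower, but 2 higher and 1 lower both with library totals and with limma on FPKM. Cold minus waterlogging had 2 higher, 5 with library totals and 4 with limma on FPKM. Some differences that were not called changed sign. Drought minus cold of LOC105051365 was −0.25 with library totals and −0.25 with limma on FPKM (TMM 0.32), its salinity minus cold was −0.57 and −0.56 (TMM 0.05), and cold minus waterlogging of LOC105047872 was 0.37 and 0.36 (TMM −0.34). With a replicate block, salinity minus cold of LOC105042708 was 0.039 and cold minus waterlogging of LOC105056959 was −0.019. Leaving out 1 library gave −0.43 to 0.36 for salinity minus cold of LOC105042708, −0.011 to 0.087 for that of LOC105051365 and −0.34 to 0.32 for cold minus waterlogging of LOC105056959. The cause is the scaling for library totals, which by construction removes the TMM factors. For limma on FPKM, whose FPKM also rest on the library total, and for the separate fit, the cause was not tested. Leaving out 1 library in turn gave 7 to 8 members higher in heat minus waterlogging, 6 to 7 in drought minus cold, 4 to 6 in salinity minus waterlogging, 4 to 5 in salinity minus cold and 2 to 3 in cold minus waterlogging.

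With library totals the median log2FC of all genes was 0.14 in heat minus drought, 0.17 in heat minus salinity, 0.28 in heat minus waterlogging, −0.44 in heat minus cold, 0.14 in drought minus waterlogging, −0.57 in drought minus cold, −0.61 in salinity minus cold and 0.72 in cold minus waterlogging. Over all genes, library totals in place of TMM changed the share of calls that were higher to 25.2% (TMM 55.8%) in heat minus cold, 19.5% (52.6%) in drought minus cold, 17.9% (57%) in salinity minus cold and 85.1% (45.3%) in cold minus waterlogging. It was 61% (49.7%) in heat minus drought, 62.5% (46.5%) in heat minus salinity, 69.9% (49.3%) in heat minus waterlogging and 61.9% (49%) in drought minus waterlogging.

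Same-numbered libraries of different groups had correlations of −0.252 to 0.25 over 45 pairs, 12 of them over 0.1, and 6 of 18 libraries correlated best with their own number, so the numbers were not taken as pairs. With a replicate block, 7, 7, 7 and 7 members were higher in heat than in drought, salinity, waterlogging and cold, and no member's call changed in the 10 contrasts. Of 40 values of a member against control, 16 moved by more than the replicate spread with library totals and 23 with limma on FPKM. Depth limits LOC105048400 most, with 1 read in the 3 control libraries.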
